A study of Zea mays with 24 samples.

Results

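The transcripts described are those of 2 maize histone genes, his1, for a linker histone, and his2b5, for a core histone H2B, read by 3 probe sets of a pilot Affymetrix maize array. A probe set is a group of short oligonucleotides that together give 1 signal for a transcript. The members were taken by name, as probe sets whose gene carries his1 or his2b5 as a synonym in the RefSeq gene table. That gave Zm3.6393.1.A1_at for his1, and Zm1.14497.1.A1_at (probe set 1) and Zm3.14497.4.A1_at (probe set 2) for his2b5, out of 8475 probe sets on the array, of which 8346 were tested after 129 controls were left out. The tested probe sets with a gene name stand for 579 genes.

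The study compared leaves of the 4 maize inbred lines W23, Mo17, Wf9 and B73, with no treatment and no control line. The maize reference genome was built from B73. Each sample pooled leaves 3, 4 and 5 of 6 to 10 plants raised in a greenhouse, so no value belongs to a single plant. Growth, harvest and extraction were done 3 times per line, and each RNA was put on 2 arrays, which makes 12 RNAs and 24 arrays.

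Chromosomal DNA is wound around nucleosomes, each built from the core histones H2A, H2B, H3 and H4. Linker histones of the H1 type bind where the DNA enters and leaves the nucleosome and help to compact the chromatin fibre. Most core histone genes are transcribed mainly while DNA is being copied, so their transcripts are abundant in dividing cells and scarce in leaf tissue that has stopped dividing. Plants carry several genes for each histone type.

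The arrays had been scaled alike, with a median signal of 42.8 to 62.8 per array. A background level of 16.7 was set from 44 control probe sets for sequences not added to the samples, as their 99th percentile, and 1900 of the 8346 tested probe sets (22.8%) stayed at or below it on all 24 arrays. B73 replicate 3 array 1 stood apart. It held all 213 exact zeros of the table, none of them in a member, and its correlation with its partner array over probe sets was 0.948, while the remaining technical pairs correlated at 0.994 or higher. W23 replicates 2 and 3 were unusually alike. Over 2148 bright probe sets, the SD of their log2 difference was 0.168, within the 0.0777 to 0.202 seen between arrays of 1 RNA (B73 replicate 3, at 0.852, aside), while other replicates of 1 line differed by 0.362 to 0.836. They are labelled as separate replications and were counted as 2. For the members, the comparisons with W23 are also given with the mean of these replicates counted as 1 sample. Markers of leaf tissue were present. Each of the 15 probe sets of the photosynthesis list was above background on 1 or more arrays. Their summed signal was 45118 to 90413 per RNA. At background on all 24 arrays were 5 of 7 for DNA replication and cell division and 10 of 11 for seed. The same held for only 1 of 5 for pollen and 0 of 2 for root. The pollen list had a summed signal of 6499 to 12623 per RNA, and the root list 15.6 to 193. Nearly all of the pollen sum came from PRO4, with line means of 1843 to 3251, and from DBB11, with 2229 to 3747. The prf2 probe set stayed at background on all 24 arrays. The pollen list was made by gene symbol, and whether PRO4 and DBB11 mark pollen was not tested. In the F-test used for the members, 30.5% of all tested probe sets differed among the lines. Among them were 1 of 15 photosynthesis probe sets, 1 of 11 for seed, 3 of 5 for pollen and 2 of 2 for root.

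The his1 transcript was not measurable above background in W23 leaves and was well above it in leaves of each other line. In W23 the his1 signal was 8.5 and 9.1 in replicate 1, 8.5 and 14.5 in replicate 2, and 10.9 and 10.4 in replicate 3. All 6 W23 arrays were at or below the background level, so W23 has only an upper bound. In Mo17 the his1 signal was 447.8 and 592.9 in replicate 1, 490.9 and 508.1 in replicate 2, and 377.5 and 366.4 in replicate 3. In Wf9 it was 304.8 and 352.8 in replicate 1, 157.6 and 158.4 in replicate 2, and 188.7 and 202.4 in replicate 3. No Mo17 or Wf9 array came near the W23 values. In B73 it was 529.4 and 589 in replicate 1, 784.5 and 783.8 in replicate 2, and 227.3 and 271.7 in replicate 3. The low B73 replicate 3 was low on both of its arrays.

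**Figure D1:**
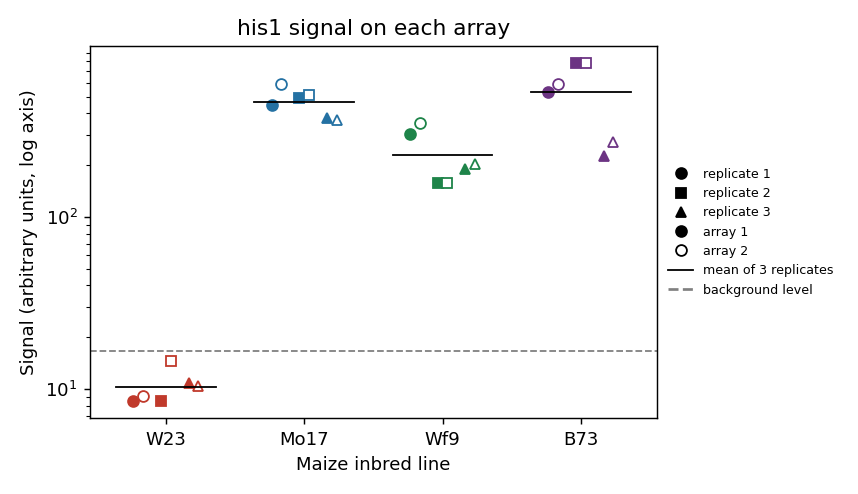
Signal of the his1 probe set on each array (y axis, arbitrary units, log scale) by line, with marker shape for the replicate, filled symbols for array 1, open symbols for array 2, a black line for the mean of the 3 replicates and a dashed line for the background level of 16.7. All 6 W23 arrays lie below the dashed line, at 14.5 or less, and all arrays of the other lines lie at 157.6 or more.

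The mean his1 signal over the replicates was 10.3 ± 1.38 in W23, 464 ± 80.3 in Mo17, 227 ± 89.8 in Wf9 and 531 ± 268 in B73 (SD, n = 3 RNAs each). The lines differed in limma's moderated F-test, with an adjusted p of 7.40e-06, in a fit where 30.5% of all tested probe sets passed the threshold of 0.05 after Benjamini-Hochberg adjustment. Against the background level, his1 was at least 27.5-fold lower in W23 than in Mo17, at least 13.0-fold lower than in Wf9 and at least 28.6-fold lower than in B73. On the log2(signal + 16) scale, which understates differences of dim probe sets, W23 minus Mo17 was -4.17 ± 0.36, W23 minus Wf9 was -3.15 ± 0.36 and W23 minus B73 was -4.24 ± 0.36 (SE). The limma adjusted p-values of these 3 contrasts were 6.41e-06, 6.97e-05 and 6.78e-06, and no W23 replicate overlapped a replicate of another line. With W23 replicates 2 and 3 counted as 1 sample the adjusted p-values were 7.02e-05, 0.000544 and 7.31e-05. In these contrasts 7.11%, 7.81% and 8.42% of all tested probe sets were lower in W23. In bulk leaves, fewer cells that hold the transcript and less of it per cell cannot be told apart, nor can the line and the sequence that the line carries under the probes.

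Of all tested probe sets, 172 (2.06%) passed the threshold of 0.05 in limma as lower in W23 against Mo17, against Wf9 and against B73. Counting his1 itself, 10 of them had a smallest log2 difference from another line at least as large as that of his1, 3.15, and 2 of these 10 have a gene name in the table used here.

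Among the other lines the order of his1 was B73, Mo17, Wf9, and no pair of these passed the threshold in the fit with line alone. Mo17 minus B73 was -0.06 on the log2(signal + 16) scale, with a 95% confidence interval of -0.84 to 0.71 and an adjusted p of 0.933, and the replicates overlapped. That interval leaves room for a difference of nearly 1 log2 unit either way. Mo17 minus Wf9 was 1.02 ± 0.36 with an adjusted p of 0.0775 in limma, although the lowest Mo17 replicate, 372, was above the highest Wf9 replicate, 329. It passed without Wf9 replicate 1 (adjusted p = 0.0451), B73 replicate 2 (0.0414) or B73 replicate 3 (0.0119). Wf9 minus B73 was -1.09 ± 0.36 with an adjusted p of 0.0628, and the replicates overlapped. It passed without Wf9 replicate 1 (adjusted p = 0.0424), without B73 replicate 3 (0.00276) and when only array 1 of that RNA was left out (0.0427). With the replicate number as a block, which pairs Wf9 and B73 replicates, it also passed (adjusted p = 0.0414), and Wf9 was below B73 in all 3 pairs of replicates with the same number. Mo17 minus Wf9 had an adjusted p of 0.0511 with the block.

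The his2b5 transcript, read by both of its probe sets, had its highest signal in B73, came next in W23 and lay near the background level in Mo17 and Wf9. On probe set 1, W23 had 34.7 and 36.5 in replicate 1, 26.7 and 35.9 in replicate 2, and 29.8 and 23.1 in replicate 3. Mo17 had 19.8 and 13.5, 11.5 and 11.3, and 13.6 and 13.2 in its 3 replicates. All W23 arrays were above every Mo17 array, and 5 of the 6 Mo17 arrays were at or below background. Wf9 had 18.7 and 16.4, 15.1 and 15.8, and 16.8 and 20.8 on probe set 1, with 3 of 6 arrays at or below background. B73 had 42.8 and 53.4 in replicate 1, 54.7 and 54.1 in replicate 2, and 18.1 and 39.8 in replicate 3. The array that stands apart is the one with 18.1, and the other 5 B73 arrays were above every array of the other lines.

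On probe set 2 the signal was 41.9 and 35.8, 26.1 and 37.2, and 22.2 and 29.1 in W23. It was 22.5 and 18.6, 14.0 and 14.7, and 16.4 and 19.1 in Mo17, where 3 of 6 arrays were at or below background. In Wf9 it was 21.7 and 17.5, 17.2 and 18.8, and 23.1 and 20.3, all just above background. The Mo17 and Wf9 arrays overlapped. In B73 probe set 2 had 48.7 and 50.2, 39.8 and 48.2, and 17.7 and 49.2. Again the single low B73 value came from replicate 3 array 1, and its partner array read 49.2.

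**Figure D2:**
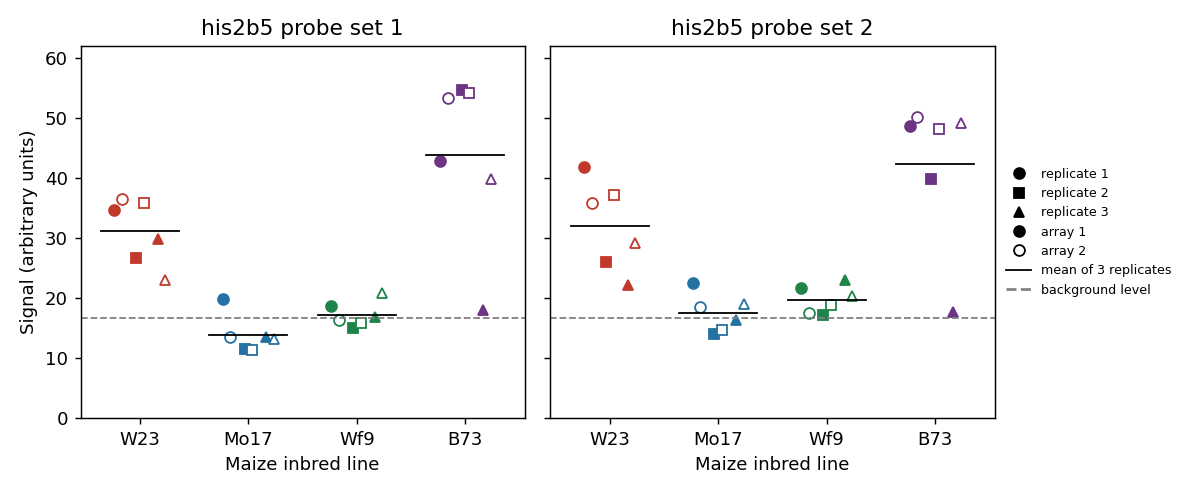
Signal of the his2b5 probe sets on each array (y axis, arbitrary units, linear from 0) by line, probe set 1 in the left panel and probe set 2 in the right panel, with symbols, mean lines and the dashed background level of 16.7 as marked in the legend. W23 arrays lie between 22.2 and 41.9, Mo17 and Wf9 arrays lie close to the dashed line, and the B73 arrays lie at 39.8 or more except replicate 3 array 1, at 18.1 and 17.7.

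Probe set 1 averaged 31.1 ± 4.58 in W23, 13.8 ± 2.65 in Mo17, 17.3 ± 1.70 in Wf9 and 43.8 ± 13.3 in B73 (SD, n = 3 RNAs each). Probe set 2 averaged 32.0 ± 6.61 in W23, 17.5 ± 3.10 in Mo17, 19.8 ± 1.86 in Wf9 and 42.3 ± 8.13 in B73. The lines differed on both, with adjusted p-values of 0.00304 for probe set 1 and 0.00721 for probe set 2 in limma's F-test. Without B73 replicate 3 array 1, the B73 mean was 47.4 ± 7.32 on probe set 1 and 47.6 ± 3.08 on probe set 2, and the adjusted p-values were 0.000144 and 0.000544.

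Lower in Mo17 and in Wf9 than in B73 was the pattern that both his2b5 probe sets passed. On probe set 1, Mo17 minus B73 was -0.97 ± 0.17 on the log2(signal + 16) scale (adjusted p = 0.00224), and Wf9 minus B73 was -0.81 ± 0.17 (adjusted p = 0.00773). On probe set 2 the differences were -0.77 ± 0.16 (adjusted p = 0.00589) and -0.67 ± 0.16 (adjusted p = 0.0131), all from limma. In these contrasts 7.66% and 7.6% of all tested probe sets were lower in Mo17 and in Wf9. The replicates did not overlap in any of the 4 comparisons. With the background level as a floor, the mean signals of B73 were 2.53-fold those of Mo17 and 2.40-fold those of Wf9 on probe set 1, and 2.29-fold and 2.12-fold on probe set 2. The folds against Mo17 on both probe sets and against Wf9 on probe set 1 are understated, since some arrays of those groups were at background. The Wf9 difference of probe set 2 narrowly missed the threshold without B73 replicate 1 (adjusted p = 0.0505). With Wf9 and B73 fitted alone, the Wf9 call was lost on both probe sets (adjusted p = 0.0637 and 0.0694).

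W23 had a higher his2b5 signal than Mo17 on probe set 1, by 0.66 ± 0.17 on the log2(signal + 16) scale (limma adjusted p = 0.0231, with 6.78% of all tested probe sets higher in W23). On probe set 2 the difference of 0.51 ± 0.16 had an adjusted p of 0.0519. The probe set 1 call was lost without W23 replicate 1 (adjusted p = 0.0840), W23 replicate 2 (0.0717), Mo17 replicate 2 (0.0926) or Mo17 replicate 3 (0.0637), and with W23 replicates 2 and 3 counted as 1 sample (0.0527). Probe set 2 passed without B73 replicate 1 (0.0483) or B73 replicate 3 (0.0193), but not with W23 replicates 2 and 3 counted as 1 sample (0.0817).

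W23 minus Wf9 was 0.50 ± 0.17 on probe set 1 and 0.41 ± 0.16 on probe set 2, with adjusted p-values of 0.0775 and 0.106 in limma, although no W23 replicate overlapped a Wf9 replicate. W23 minus B73 was -0.31 ± 0.17 and -0.26 ± 0.16, with adjusted p-values of 0.267 and 0.319 and overlapping replicates. The calls of these W23 comparisons depended on the settings of the fit. Without B73 replicate 3 array 1, W23 was higher than Wf9, by the same log2 differences of 0.50 and 0.41 (adjusted p = 0.0188 on probe set 1 and 0.0489 on probe set 2, with 7.44% of all tested probe sets higher in W23 when every array was kept) and higher than Mo17 (0.00373 and 0.0190). Without it W23 was also lower than B73, by a log2 difference of -0.43 on probe set 1 (adjusted p = 0.0384) and -0.42 on probe set 2 (adjusted p = 0.0465). Without the whole of B73 replicate 3, W23 minus Wf9 had adjusted p-values of 0.0120 and 0.0467, and W23 minus B73 was -0.52 on probe set 1 (adjusted p = 0.0209) and -0.40 on probe set 2, which did not pass (adjusted p = 0.0988). With every array kept, W23 minus Wf9 on probe set 1 passed under quantile normalization (adjusted p = 0.0411) and with W23 and Wf9 fitted alone (adjusted p = 0.0282). With W23 replicates 2 and 3 counted as 1 sample, neither comparison passed. The limma adjusted p-values on probe sets 1 and 2 were then 0.132 and 0.143 for W23 minus Wf9. For W23 minus B73 they were 0.452 and 0.544.

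Mo17 and Wf9 could not be told apart on either his2b5 probe set. Mo17 minus Wf9 was -0.16 (95% confidence interval -0.54 to 0.21, adjusted p = 0.660) on probe set 1 and -0.09 (-0.44 to 0.25, adjusted p = 0.798) on probe set 2. Both lines were close to background there, so a difference below that level would not show.

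**Figure D3:**
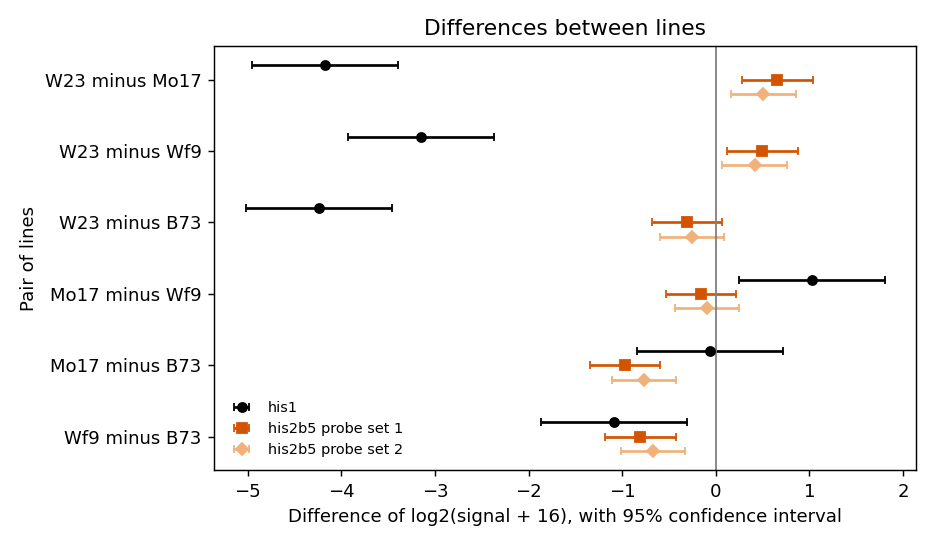
Differences between lines in log2(signal + 16) (x axis, with 95% confidence intervals from the limma fit of 3 RNAs per line) for the 6 pairs of lines (y axis), with his1 in black and the his2b5 probe sets in orange. W23 minus Mo17 is -4.17 for his1 and 0.66 and 0.51 for his2b5, on opposite sides of 0, and the his2b5 probe sets lie side by side in every pair.

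The his2b5 probe sets moved together. The log2 value of probe set 1 minus that of probe set 2 ran from -0.09 to 0.03 in W23, from -0.20 to -0.15 in Mo17, from -0.12 to -0.08 in Wf9 and from -0.10 to 0.23 in B73. After each probe set was centred on its own mean over the 12 RNAs, the root mean square difference between them was 0.11. The same distance from his1 was 1.87 for probe set 1 and 1.85 for probe set 2. W23 leaves had his1 at background and his2b5 above it on all 6 arrays, while Mo17 leaves had his1 at 366.4 or more and his2b5 at or near background.

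The spread of the 3 probe sets differed by level of replication. For his1 the SD was 0.13 log2 units between arrays of 1 RNA, 0.50 between RNAs of 1 line and 1.99 between line means. For his2b5 probe set 1 the SDs were 0.18, 0.21 and 0.45, and for probe set 2 they were 0.23, 0.18 and 0.36. The technical part of his2b5 came largely from B73 replicate 3, whose arrays differed by 0.71 and 0.95 log2 units. Without that RNA the technical SD was 0.12 on both his2b5 probe sets.

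The identifiers of both his2b5 probe sets hold the number 14497, which 7 further probe sets also carry. These 7 have no gene in the table used here and are given by identifier alone. Of the 9 together, 6 differed among the lines, 4 of them unnamed, against 30.5% of all tested probe sets.

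Among the unnamed ones, Zm3.14497.1.A1_at separated all 4 lines. Its signal was 11.5 ± 2.01 in W23, at or below background on all 6 arrays, 105 ± 7.59 in Mo17, 33.8 ± 3.10 in Wf9 and 434 ± 81.4 in B73 (SD, n = 3 each). It was at least 6.29-fold lower in W23 than in Mo17, at least 2.02-fold lower than in Wf9 and at least 25.7-fold lower than in B73. All 6 pairs of lines passed in limma, with adjusted p-values of 0.00327 or less, where 13.9% of all tested probe sets passed for W23 minus Mo17, 15.3% for W23 minus Wf9, 16% for W23 minus B73, 16.3% for Mo17 minus Wf9, 14.7% for Mo17 minus B73 and 14.5% for Wf9 minus B73. With a pseudocount of 64, W23 minus Wf9 missed the threshold (adjusted p = 0.0679). The partner Zm3.14497.1.A1_x_at, whose suffix marks probes shared with other sequences, gave 12.3 ± 2.95, 86.9 ± 4.75, 34.8 ± 4.74 and 412 ± 53.5 in W23, Mo17, Wf9 and B73.

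Zm3.14497.2.A1_at set W23 apart from the other lines without reaching background, with 175 ± 14.9 in W23, 619 ± 83.0 in Mo17, 639 ± 133 in Wf9 and 695 ± 18.6 in B73. W23 was 3.53-fold lower than Mo17, 3.62-fold lower than Wf9 and 3.98-fold lower than B73, with limma adjusted p-values of 1.69e-05, 1.53e-05 and 9.51e-06. Zm1.14497.9.A1_at showed no such difference. It had 226 ± 24.5 in W23, 208 ± 59.3 in Mo17, 207 ± 47.4 in Wf9 and 230 ± 51.6 in B73, and the F-test gave an adjusted p of 0.902. Its partner Zm1.14497.9.A1_x_at had an adjusted p of 0.941. The remaining pair was mostly below background, and of these Zm3.14497.3.A1_x_at passed the F-test (adjusted p = 0.0314, lost in 7 of 23 alternatives, among them without W23 replicate 2 or 3 and without Mo17 replicate 2 or 3) and Zm3.14497.3.A1_at did not (adjusted p = 0.216).

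**Figure D4:**
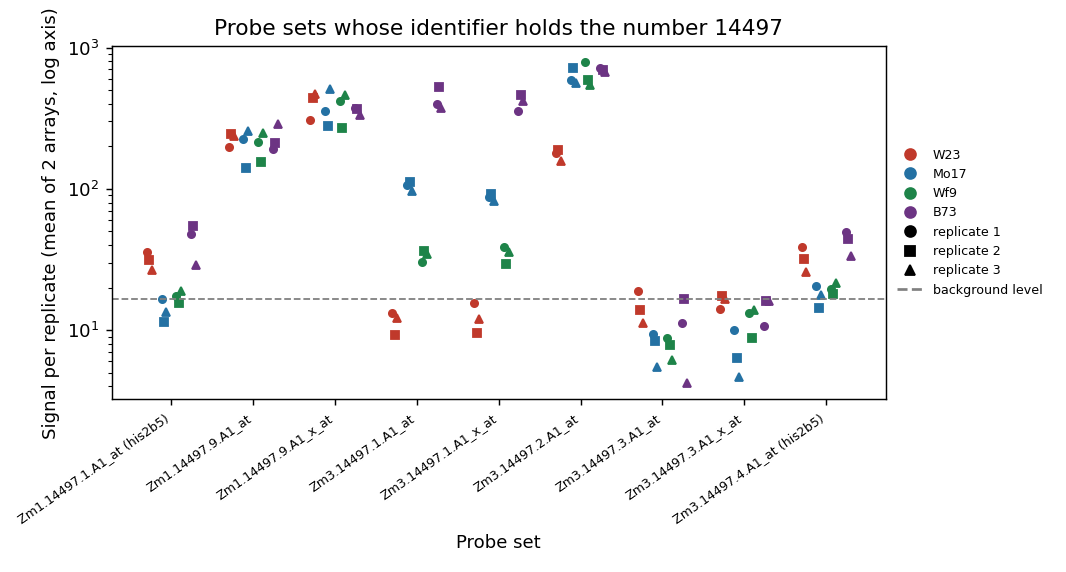
Signal per replicate (mean of 2 arrays, arbitrary units, log axis) for the 9 probe sets whose identifier holds the number 14497 (x axis), coloured by line with marker shape for the replicate and a dashed line for the background level; levels are not comparable between probe sets. The his2b5 probe sets lie low, Zm3.14497.1.A1_at spreads from about 11.5 in W23 to 434 in B73, and Zm1.14497.9.A1_at overlaps in all lines.

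The gene table used here gives 2 further linker histone genes on the array, his1a (also called hon102) and hon101. The his1a signal differed among the lines on all 3 of its probe sets. On Zm3.6905.1.A1_at it was 1750 ± 285 in W23, 624 ± 93.6 in Mo17, 1210 ± 321 in Wf9 and 822 ± 14.7 in B73, with an F-test adjusted p of 0.000584. W23 was higher than Mo17 by 1.47 ± 0.20 (limma adjusted p = 0.000260) and higher than B73 by 1.10 ± 0.20 (adjusted p = 0.00241, with 7.57% of all tested probe sets higher in W23) on the log2(signal + 16) scale, and W23 minus Wf9 was 0.55 (adjusted p = 0.0908). W23, the line with his1 at background, had the highest mean his1a signal on each of the 3 probe sets. The W23 and Wf9 replicates overlapped on all 3, and W23 minus Wf9 passed on none. Its limma adjusted p was 0.237 for Zm1.6905.1.A1_x_at and 0.610 for Zm1.6905.1.A1_at. The F-test adjusted p was 0.00251 for Zm1.6905.1.A1_x_at and 0.0238 for Zm1.6905.1.A1_at, and the last call was lost in 4 of 23 alternatives, namely without W23 replicate 1 (0.0661), W23 replicate 2 (0.0581) or Mo17 replicate 2 (0.0508) and with W23 replicates 2 and 3 as 1 sample (0.0501).

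The array that stands apart carried weight here. For his1a on Zm3.6905.1.A1_at it read 1114.8, against 496.7 on its partner, and without it the B73 mean was 719 ± 193 and the F-test adjusted p 0.00143. On Zm1.6905.1.A1_at it went the other way, with 396.6 against 828.9. Without it the his1a adjusted p-values were 0.00452 for Zm1.6905.1.A1_x_at and 0.00724 for Zm1.6905.1.A1_at, so all 3 probe sets still passed.

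With every array kept, the hon101 replicates overlapped in every pair of lines. On Zm3.12583.1.A1_at the signal was 603 ± 157 in W23, 752 ± 342 in Mo17, 1139 ± 410 in Wf9 and 800.2 ± 369 in B73, and the limma F-test gave an adjusted p of 0.320. On Zm1.12583.1.A1_at the adjusted p was 0.343. The B73 value rested on replicate 3 array 1, which read 1924.7 against 527.5 on its partner on Zm3.12583.1.A1_at. Without it the B73 mean was 567 ± 35.1, and the adjusted p was 0.171, and for Zm1.12583.1.A1_at it was 0.185. Wf9 and B73 then no longer overlapped on Zm3.12583.1.A1_at, with B73 at 594 or less and Wf9 at 668 or more. On Zm1.12583.1.A1_at B73 was then at 575 or less and Wf9 at 671 or more.

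**Figure D5:**
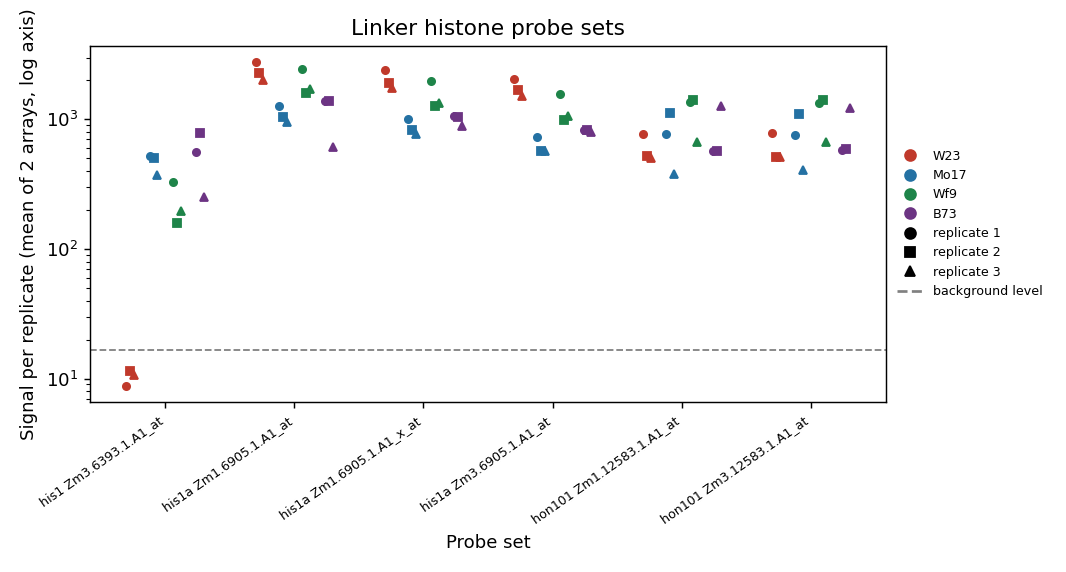
Signal per replicate (mean of 2 arrays, arbitrary units, log axis) for the linker histone probe sets (x axis), his1 first, then his1a and hon101, coloured by line with marker shape for the replicate and a dashed line for the background level; levels are not comparable between probe sets. W23 lies below the dashed line for his1 and has the highest mean for his1a, while the lines overlap for hon101, where the highest B73 replicate rests on the array that reads 1924.7.

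Of the 8 histone probe sets, which stand for 4 genes with the members included, 6 differed among the lines. The 5 that are no members had 3 calls, which were all his1a and ran from 2 to 5 over the alternatives. The median difference of the 8 was 0.58 for W23 minus Mo17, 0.36 for W23 minus Wf9 and -0.25 for W23 minus B73, beside -0.02, -0.01 and 0.04 over all tested probe sets. That median counts every probe set of a gene, so his1a weighs more in it than his1, which was at -4.17 for W23 minus Mo17. Among 51 probe sets for other chromatin proteins, 10 (19.6%) differed, which is below the 30.5% of all tested probe sets. The 3 with the smallest p were mbd111, a methyl-CpG-binding domain protein, hac106, a histone acetyltransferase, and mbd106, of the same domain family as mbd111. The hac106 signal was 128 ± 16.1 in W23, 120 ± 36.3 in Mo17, 21.6 ± 2.11 in Wf9 and 86.7 ± 38.3 in B73. For mbd106 it was 320 ± 6.39 in W23, 570 ± 52.3 in Mo17, 276 ± 38.1 in Wf9 and 522 ± 146 in B73.

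Probe sets listed by gene symbol under DNA replication and cell division were mostly unmeasurable in these leaves. They were those of pcna2, cdc2, KIN6, KN-1, csh9, cyc3 and wee1. The match was by symbol alone, so a gene such as KN-1 may not belong to this group. Of 7 probe sets 1 differed among the lines (14.3%), which is below the 30.5% of all tested probe sets. That was pcna2, for the clamp that holds DNA polymerase on its template (limma F-test adjusted p = 0.00333). The pcna2 signal was 8.97 ± 1.91 in W23, 21.3 ± 5.80 in Mo17, 9.32 ± 2.74 in Wf9 and 5.72 ± 2.21 in B73. It was at or below background on 19 of 24 arrays. The summed signal of the 7, of which 5 stayed at background on all 24 arrays, was 94.3 to 127 over the W23 replicates, 85.9 to 105 in Mo17, 91.1 to 116 in Wf9 and 61.9 to 87.0 in B73. The largest part of that sum came from cdc2. The part of dividing cells in the his2b5 differences was not tested.

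The named probe set whose pattern over the 12 RNAs was most like that of his1 was mbd111, out of 229 candidates that have 1 gene name and passed the F-test. Its signal was 1.95 ± 0.958 in W23, 265 ± 46.2 in Mo17, 294 ± 45.7 in Wf9 and 249 ± 42.4 in B73, and its root mean square log2 difference from his1 after centring was 0.61, where his1 itself departs from its mean by 1.77. The next were rpp2a-4, for an acidic ribosomal protein, at 0.90, and apx2, for an ascorbate peroxidase, at 1.08, both lower in W23. Another 32 unnamed probe sets were nearer to his1 than apx2.

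For his2b5 probe set 1 the nearest were hac108, for a histone acetyltransferase, at 0.23, hag101, also listed as gcn5 and named after the yeast acetyltransferase, at 0.25, and mgs1 at 0.26. The his2b5 probe set itself departs from its mean by 0.42, so these are less close in relative terms than mbd111 is to his1. The hag101 signal was 53.5 ± 7.08 in W23, 32.9 ± 5.03 in Mo17, 37.3 ± 8.28 in Wf9 and 63.95 ± 4.75 in B73. The hac108 signal was 184 ± 36.9 in W23, 108 ± 24.4 in Mo17, 113 ± 21.0 in Wf9 and 191 ± 34.2 in B73. Both have higher means in W23 and B73 than in Mo17 and Wf9, which follows from their choice as nearest to his2b5. Another 38 unnamed probe sets were nearer to probe set 1 than mgs1. For probe set 2 the nearest were hag101 at 0.21, mgs1 at 0.21 and cc7, for a cystatin, at 0.22, with 26 unnamed probe sets nearer than cc7. The mgs1 means were below background in every line, at 2.93 to 11.0.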

How the data were processed

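Leaf RNA of 4 maize lines was measured on 24 arrays. The authors deposited 1 table of probe set signal, which is an intensity on a linear scale made with MAS5 in GCOS, per the submitters' processing notes. The labels name no version, scaling target or build. The 2% trimmed mean lay between 250.1 and 250.2 on every array. Each array was rescaled to the mean of these, zeros were set to missing, and signals other than controls were put on the log2(signal + 16) scale. The 2 arrays of an RNA were averaged, and 12 RNAs were fitted with limma 3.58.1 in R 4.3.3 (lmFit, eBayes with trend), with line as the only term, an F-test and 6 contrasts, adjusted by Benjamini-Hochberg over 8346 probe sets. The p-values treat the 3 growth replicates as separate samples. Means and SDs are of linear signal. Folds are ratios of geometric means with the background level as a floor. The precision is limited by the 3 RNAs per line.

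The fit was also run on simulated data, with large shifts added only to probe sets brighter than those of his2b5 and with independent noise. That run does not cover differences as small as those of his2b5 or replicates that share deviations, and no conclusion is drawn from it. Replicate numbers may pair the samples. Deviations of same-numbered RNAs from their line means correlated at 0.244 to 0.597 in 15 pairs of RNAs, and at -0.63 to -0.36 in the 3 pairs that hold W23 replicate 2. The main fit pairs no samples. In the alternative with a replicate block all lines were paired by number, W23 included, although W23 replicate 2 went against such pairing. Blocked values are given where a call changes. A single symbol was given for 862 probe sets, of which 838 matched a gene of Zm-B73-REFERENCE-NAM-5.0. No coordinates are given, since no build is named for the array. The members and lists were chosen with earlier results of these data known. Besides the members, up to 3 called probe sets per list with the smallest F-test p were to be named, and the 3 named probe sets nearest in pattern. For the leaf, pollen, root and seed lists the calls are given as counts.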

Additional observations from a re-analysis of the deposited data

How the results depend on the processing

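Over 23 alternatives the F-test call was kept for all 3 member probe sets (69 of 69), with adjusted p from 1.59e-12 to 9.89e-05 for his1, 4.26e-06 to 0.0119 for his2b5 probe set 1 and 2.04e-05 to 0.0233 for probe set 2. Of 432 values for pairs of lines, 391 kept their call, 8 lost it and 33 gained it. No difference that was called in the main fit or in the alternative changed sign. The uncalled his1 Mo17 minus B73 did change sign, from -0.06 in the main fit to 0.28 without B73 replicate 2. The 3 his1 contrasts with W23 kept theirs in every alternative.

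Log2 differences whose call changed were as follows. Leaving out B73 replicate 3 array 1 gave -1.13 for his1 Wf9 minus B73, 0.50 and 0.41 for his2b5 W23 minus Wf9, -0.43 and -0.42 for W23 minus B73, and 0.51 for W23 minus Mo17 on probe set 2, all now past the threshold. Array weights, whose estimate stopped before it converged, gave -0.87 for his1 Wf9 minus B73, 0.42 and 0.33 for his2b5 W23 minus Wf9, -0.51 and -0.53 for W23 minus B73, and 0.44 for probe set 2 W23 minus Mo17, also past it. Fitting 24 arrays with duplicateCorrelation left 1.02 for his1 Mo17 minus Wf9 and -1.09 for Wf9 minus B73, both now past it. Quantile normalization gave 0.49 for probe set 1 W23 minus Wf9 and 0.56 for probe set 2 W23 minus Mo17. That contrast, at 0.51, also passed without dim probe sets and without the mean-variance trend. With the replicate block, his1 Wf9 minus B73 (-1.09, adjusted p = 0.0414) and probe set 2 W23 minus Mo17 (0.51, adjusted p = 0.0323) passed in limma, no other member call changed, and 2960 probe sets differed among the lines, against 2549 without it. In fits of 2 lines alone, his1 Mo17 minus Wf9 (1.02), probe set 1 W23 minus Wf9 (0.50) and probe set 2 W23 minus Mo17 (0.51) gained the call, and Wf9 minus B73 lost it on probe set 1 (-0.81) and probe set 2 (-0.67). With W23 replicates 2 and 3 as 1, probe set 1 W23 minus Mo17 was 0.69 and lost the call. The cause was not tested.

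Leaving out 1 replicate at a time, his1 ran from 0.81 to 1.30 for Mo17 minus Wf9 and from -1.54 to -0.74 for Wf9 minus B73. For Mo17 minus B73 his1 ran from -0.52 to 0.28, never with a call. Probe set 1 ran from 0.59 to 0.73 for W23 minus Mo17, 0.43 to 0.57 for W23 minus Wf9 and -0.52 to -0.17 for W23 minus B73. Probe set 2 ran from 0.41 to 0.61 for W23 minus Mo17, 0.31 to 0.51 for W23 minus Wf9 and -0.81 to -0.57 for Wf9 minus B73. Array weights gave 5424 probe sets that differed among the lines, and the chromatin list ran from 8 to 31 calls, the division list from 1 to 5. Under array weights both hon101 probe sets passed the F-test (adjusted p = 0.00104 and 0.00125). With 3 RNAs a line and his2b5 signals near background, small differences could not be measured.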
